A study of Mus musculus with 11 samples.

Results

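The genes described here encode acute phase and innate secreted proteins: the serum amyloid A genes Saa1, Saa2 and Saa3, the chitinase-like gene Chil1, the iron-handling genes Lcn2 and Ltf, haptoglobin (Hp), the orosomucoids Orm1 and Orm2, and Wfdc17. They are 10 of the 19938 genes measured in fibroblasts sorted from mouse mammary glands and mammary tumours. The set was chosen on the steep increase of Saa2 and Chil1 in tumour-derived fibroblasts in these same arrays, and the other 8 were added as secreted proteins of the same class. Each member was measured by 1 probe set that names no other gene, and no probe set with several symbols named a member. Because Saa2 and Chil1 chose the set, their values in every comparison of tumour stages with normal glands or hyperplasia are a description with no test. The calls of the other 8 in those comparisons are given beside the share of all genes called and support nothing further. In the remaining comparisons Saa2 and Chil1 are counted among the 10, although values of the same arrays chose the set.

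Affymetrix Mouse Gene 1.0 ST arrays were hybridised with cDNA made from RNA of freshly sorted fibroblasts from female mice, 1 cohort of pooled mice per array. The stages were normal mammary glands of FVB/n mice aged 8 weeks (2 arrays, D2 and D5), and, from MMTV-PyMT mice, hyperplasia at 4 weeks (3 arrays, D6, D7 and D12), carcinoma at 9 weeks (3 arrays, D3, D4 and D10) and advanced carcinoma, labelled late carcinoma, at 12 weeks (3 arrays, D8, D9 and D11). In MMTV-PyMT mice the mouse mammary tumour virus promoter directs the polyoma middle T oncogene to the mammary epithelium. The carcinoma and advanced carcinoma arrays together are called cancer-associated fibroblasts (CAFs, 6 arrays) and are set against normal glands and hyperplasia together (5 arrays). Age goes with stage, and normal glands also differ in genotype, so stage and age cannot be told apart and neither can stage and genotype in comparisons with normal glands.

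Cells were sorted as CD140a-positive (PDGFRα), F4/80-negative and, per the labels, EpCAM-negative. The paper's methods name CD140a and F4/80 for the array sort and an EpCAM antibody only for the validation sorts. Pdgfra averaged 10.50 in CAFs and 11.16 in normal glands and hyperplasia on the log2 scale (adjusted p = 0.11). Epcam, the epithelial antigen named in the labels, averaged 9.33 in CAFs and 7.17 in normal glands and hyperplasia (adjusted p = 0.00149). Adgre1, which encodes F4/80, averaged 6.46 in CAFs and 4.14 in normal glands and hyperplasia (adjusted p = 0.00719). Transcripts of F4/80, which the sort should exclude, and of EpCAM were both higher in the CAF arrays. Whether EpCAM-positive cells were excluded from these arrays is uncertain, as the labels and the methods differ. In such bulk samples, fewer cells of a type and less RNA per cell cannot be told apart. A numerical tie links 2 of the arrays: in each probe set, D2 (normal) plus D11 (advanced carcinoma) equals the average of the remaining 9 multiplied by 2, with no gap over 0.000144 log2 units. Values of D2 and D11 are therefore not independent of the other 9, and results are also given without them where that matters.

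The acute phase response is the early systemic reaction to infection and injury, in which cytokines such as interleukin-1 and interleukin-6 act through NF-kB, STAT3 and C/EBP factors to raise the secretion of plasma proteins, mainly by the liver. Several of the same proteins are also made locally by epithelia, macrophages and neutrophils, where they bind lipids, iron, haemoglobin or microbial products. Lactoferrin and lipocalin 2 are also known products of the mammary epithelium.

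Sequences upstream of the start sites were read from RefSeq (GRCm38.p6) for 8 of the 10 genes and searched on both strands for 3 motifs, whose letters were chosen with results of these data known. The C/EBP motif TTGCNNAA lay within 250 bases upstream of the start site in 6 of the 8 genes, against 9.56% of 32851 promoters of that length. These were Saa1, Saa2, Saa3, Lcn2, Ltf and Orm2, with the near-identical upstream sequences of Saa1 and Saa2 counted separately. The NF-kB consensus was found in Chil1 (1 of 8, against 7.25% of promoters), and the STAT motif TTCNNNGAA in 0 of 8 (against 7.02%). No motif overlapped another. Printed here are the 3 serum amyloid genes, whose upstream sequences can be compared, Chil1 for its NF-kB match, and Ltf and Orm2, which both hold a C/EBP match and differed in their expression across stages. All are 250 bases long, 5′ to 3′, ending at the base before the start site, with motif matches in capitals. They lie at chr7:46742981-46743230, minus strand (Saa1), chr7:46751583-46751832, plus strand (Saa2), chr7:46715677-46715926, minus strand (Saa3), chr1:134181906-134182155, plus strand (Chil1), chr9:111019042-111019291, plus strand (Ltf) and chr4:63362199-63362448, plus strand (Orm2).
Saa1: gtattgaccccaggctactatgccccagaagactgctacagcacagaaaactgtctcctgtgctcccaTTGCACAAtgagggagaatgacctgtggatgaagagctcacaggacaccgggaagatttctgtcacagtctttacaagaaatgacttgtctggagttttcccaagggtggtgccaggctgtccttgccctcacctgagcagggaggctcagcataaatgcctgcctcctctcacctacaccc
Saa2: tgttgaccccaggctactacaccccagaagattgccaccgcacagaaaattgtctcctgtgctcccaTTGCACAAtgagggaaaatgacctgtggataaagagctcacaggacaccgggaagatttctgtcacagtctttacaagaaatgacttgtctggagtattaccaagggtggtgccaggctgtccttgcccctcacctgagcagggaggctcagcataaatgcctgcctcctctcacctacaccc
Saa3: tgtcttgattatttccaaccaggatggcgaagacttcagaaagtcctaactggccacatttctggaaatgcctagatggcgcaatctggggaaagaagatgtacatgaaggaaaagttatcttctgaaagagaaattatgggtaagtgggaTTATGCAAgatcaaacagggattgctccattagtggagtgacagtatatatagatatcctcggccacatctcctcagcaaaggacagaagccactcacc
Chil1: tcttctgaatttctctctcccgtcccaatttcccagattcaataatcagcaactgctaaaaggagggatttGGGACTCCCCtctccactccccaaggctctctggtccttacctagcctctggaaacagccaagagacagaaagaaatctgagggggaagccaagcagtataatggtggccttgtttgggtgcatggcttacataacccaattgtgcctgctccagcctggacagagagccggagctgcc
Ltf: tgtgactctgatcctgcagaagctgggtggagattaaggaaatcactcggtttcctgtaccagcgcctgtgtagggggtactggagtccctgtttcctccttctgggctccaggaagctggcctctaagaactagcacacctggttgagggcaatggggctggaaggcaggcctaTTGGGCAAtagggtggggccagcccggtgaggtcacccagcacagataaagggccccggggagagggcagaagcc
Orm2: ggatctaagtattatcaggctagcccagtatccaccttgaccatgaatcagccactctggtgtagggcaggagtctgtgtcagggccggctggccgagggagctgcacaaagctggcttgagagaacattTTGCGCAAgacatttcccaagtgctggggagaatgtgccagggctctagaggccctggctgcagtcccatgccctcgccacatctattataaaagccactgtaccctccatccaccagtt
The match began 182 bases before the start site in Saa1 and 183 in Saa2, with the same letters. In Saa3 it began 99 bases before the start site, in Ltf 75 and in Orm2 120, while the NF-kB match of Chil1 began at 179. Saa1 and Saa2 were identical at 238 of 249 aligned upstream bases (95.6%). Saa3 matched Saa1 at 154 of 205 aligned bases (75.1%, with 90 bases in gaps) and Saa2 at 152 of 210 (72.4%, with 80 in gaps). Bases in gaps are left out of these percentages, and no unrelated pair was aligned for comparison. A match to a motif is a description of the letters and not of a bound factor.

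Saa2 encodes an acute phase apolipoprotein that travels on high-density lipoprotein. Saa2 had 3.70 (D2) and 2.73 (D5) in normal glands, 3.80 (D6), 4.37 (D7) and 5.56 (D12) in hyperplasia, 8.52 (D3), 9.14 (D4) and 7.58 (D10) in carcinoma, and 7.41 (D8), 7.19 (D9) and 8.81 (D11) in advanced carcinoma (log2 expression, as all levels below). All 6 CAF arrays lay above all 5 others, with the lowest CAF array 7.19 and the highest other array 5.56. The mean was 8.11 ± 0.82 in CAFs (SD, n = 6) and 4.03 ± 1.04 in normal glands and hyperplasia (SD, n = 5), a difference of 4.07 (standard error 0.50, 16.9-fold). Carcinoma was 5.2 above normal glands (36.6-fold, standard error 0.67) and 3.84 above hyperplasia (14.3-fold, standard error 0.60), and advanced carcinoma was 4.58 above normal glands (24.0-fold, standard error 0.67).

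Saa1 encodes a closely related acute phase apolipoprotein. Saa1 had 3.87 (D2) and 3.34 (D5) in normal glands, 3.72 (D6), 3.44 (D7) and 4.52 (D12) in hyperplasia, 5.55 (D3), 6.07 (D4) and 4.80 (D10) in carcinoma, and 5.03 (D8), 4.93 (D9) and 5.33 (D11) in advanced carcinoma. CAF arrays again did not overlap the others, although carcinoma D10 lay close to hyperplasia D12. Saa1 was 1.51 higher in CAFs (2.84-fold, standard error 0.26, adjusted p = 0.00228). Saa1 and Saa2 are near-identical copies and each is listed by RefSeq under the other's name as a synonym, so signal could be shared between their probe sets and their values are uncertain as measures of either gene alone.

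Saa3 is the serum amyloid A gene of mice that is induced mainly outside the liver, in macrophages and adipose tissue among others. Saa3 had 4.82 (D2) and 4.32 (D5) in normal glands, 4.60 (D6), 4.42 (D7) and 4.87 (D12) in hyperplasia, 5.76 (D3), 6.18 (D4) and 5.28 (D10) in carcinoma, and 5.93 (D8), 6.20 (D9) and 5.75 (D11) in advanced carcinoma. Every CAF array exceeded every other array. Saa3 was 1.24 higher in CAFs (2.37-fold, standard error 0.17, adjusted p = 0.000649). The order of arrays differed between these genes. Among advanced carcinoma arrays D11 was the highest for Saa1 and Saa2 and the lowest for Saa3. The values of D11 are tied to those of the other arrays, so this order is not an independent observation. Saa4, the constitutively expressed member of the family, averaged 3.73 in CAFs and 3.80 in normal glands and hyperplasia (difference -0.07, adjusted p = 0.325).

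**Figure D1:**
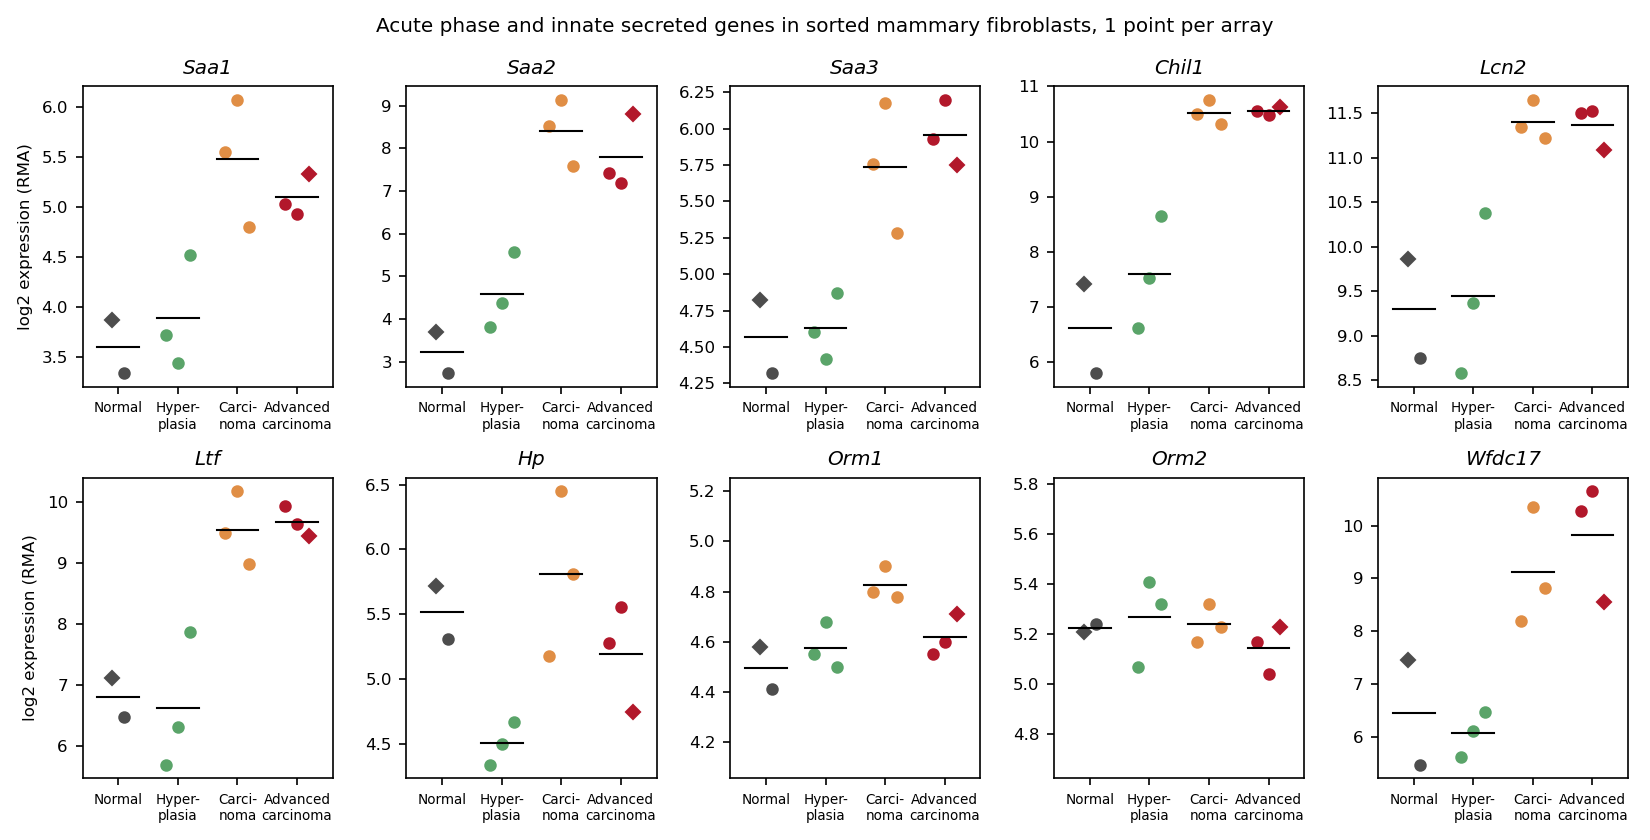
Log2 expression (y axis, RMA values) of the 10 genes by stage (x axis), 1 point per array, with the mean of each stage as a line and the related arrays D2 and D11 as diamonds; each panel has its own y range. Saa2 lies between 7.19 and 9.14 in the 6 CAF arrays and between 2.73 and 5.56 in the other 5, while Orm2 lies between 5.04 and 5.41 in all 11.

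Chil1 encodes a secreted chitin-binding lectin without chitinase activity (YKL-40 in humans). Chil1 had 7.42 (D2) and 5.80 (D5) in normal glands, 6.62 (D6), 7.52 (D7) and 8.65 (D12) in hyperplasia, 10.50 (D3), 10.76 (D4) and 10.32 (D10) in carcinoma, and 10.55 (D8), 10.48 (D9) and 10.62 (D11) in advanced carcinoma. The 6 CAF arrays lay within 10.32 and 10.76, a much narrower range than the other 5. The mean was 10.54 ± 0.15 in CAFs (SD, n = 6) and 7.20 ± 1.07 in normal glands and hyperplasia (SD, n = 5), a difference of 3.34 (10.1-fold, standard error 0.39). Carcinoma was 3.92 above normal glands (15.1-fold, standard error 0.57) and 2.93 above hyperplasia (7.61-fold, standard error 0.51). The 2 normal arrays lay far apart: the difference of advanced carcinoma from normal glands, 3.94 (15.3-fold), was 4.75 without D2 and 3.13 without D5.

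Lcn2 encodes lipocalin 2, which withholds iron from bacteria by binding their siderophores. Lcn2 had 9.86 (D2) and 8.75 (D5) in normal glands, 8.58 (D6), 9.37 (D7) and 10.38 (D12) in hyperplasia, 11.34 (D3), 11.65 (D4) and 11.22 (D10) in carcinoma, and 11.50 (D8), 11.52 (D9) and 11.09 (D11) in advanced carcinoma. All CAF arrays lay above the others, and hyperplasia D12 (10.38) came closest to them. Lcn2 was 2.0 higher in CAFs (3.99-fold, standard error 0.29, adjusted p = 0.000905).

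Ltf encodes lactoferrin, an iron-binding protein of milk and of neutrophil granules. Ltf had 7.12 (D2) and 6.48 (D5) in normal glands, 5.70 (D6), 6.32 (D7) and 7.87 (D12) in hyperplasia, 9.49 (D3), 10.18 (D4) and 8.98 (D10) in carcinoma, and 9.93 (D8), 9.64 (D9) and 9.45 (D11) in advanced carcinoma. The lowest CAF array, 8.98, stood above the highest of the others, 7.87. Ltf was 2.91 higher in CAFs (7.53-fold, standard error 0.35, adjusted p = 0.000377), the smallest adjusted p among the 8 genes tested.

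Wfdc17 encodes a small secreted protein with a whey acidic protein domain that is expressed by activated macrophages and microglia in mice. Wfdc17 had 7.45 (D2) and 5.48 (D5) in normal glands, 5.63 (D6), 6.11 (D7) and 6.47 (D12) in hyperplasia, 8.19 (D3), 10.36 (D4) and 8.82 (D10) in carcinoma, and 10.28 (D8), 10.65 (D9) and 8.55 (D11) in advanced carcinoma. Within CAFs, D4, D8 and D9 were high and D3, D10 and D11 were low. In advanced carcinoma this split rests on D11, whose value is tied to those of the other arrays. Wfdc17 was 3.24 higher in CAFs (9.48-fold, standard error 0.52, adjusted p = 0.00167). Without D4, D8 and D9, a setting chosen after seeing the data, the difference was 2.29 (adjusted p = 0.0122).

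Hp encodes haptoglobin, which binds free haemoglobin. Hp had 5.72 (D2) and 5.31 (D5) in normal glands, 4.34 (D6), 4.50 (D7) and 4.67 (D12) in hyperplasia, 5.18 (D3), 6.45 (D4) and 5.81 (D10) in carcinoma, and 5.28 (D8), 5.56 (D9) and 4.75 (D11) in advanced carcinoma. The hyperplasia arrays were the lowest and did not overlap either carcinoma or normal glands. Hp was 0.60 higher in CAFs (standard error 0.32, adjusted p = 0.195) and did not pass, whereas without D2 and D11 the difference was 0.95 (adjusted p = 0.0448).

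The orosomucoids are plasma glycoproteins that bind lipids and basic drugs. Orm1 lay between 4.55 and 4.90 in CAFs (median 4.75) and had 4.58, 4.41, 4.55, 4.68 and 4.50 in the normal and hyperplasia arrays, a difference of 0.18 (95% interval 0.02 to 0.34, adjusted p = 0.086). Orm2 lay between 5.04 and 5.32 in CAFs and between 5.07 and 5.41 in normal glands and hyperplasia, a difference of -0.05 (95% interval -0.20 to 0.09, adjusted p = 0.589). For both orosomucoids the CAF arrays overlapped the others. Both lay in every array below 5.64, the median level over all genes, so their flat values are those of dim genes.

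Taking CAFs against normal glands and hyperplasia, 5 of the 8 genes that did not choose the set passed as higher (Saa1, Saa3, Lcn2, Ltf and Wfdc17) and 0 as lower, against 12% of all genes called higher and 12.8% called lower. The median difference of these 8 was 1.38, against -0.04 over all genes tested. Saa1 is counted among the 8, although its signal could be shared with that of Saa2, which chose the set. The same limit applies to Saa1 in the stage comparisons below. All 6 CAF arrays exceeded all 5 others for 5 of these 8, against 7.77% of all genes. The same 5 genes passed with each array left out in turn, with a term for D2 and D11, and without D4, D8 and D9. With genes below the median level removed, Saa1, Saa3, Hp, Orm1 and Orm2 were no longer tested and 3 members passed.

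**Figure D2:**
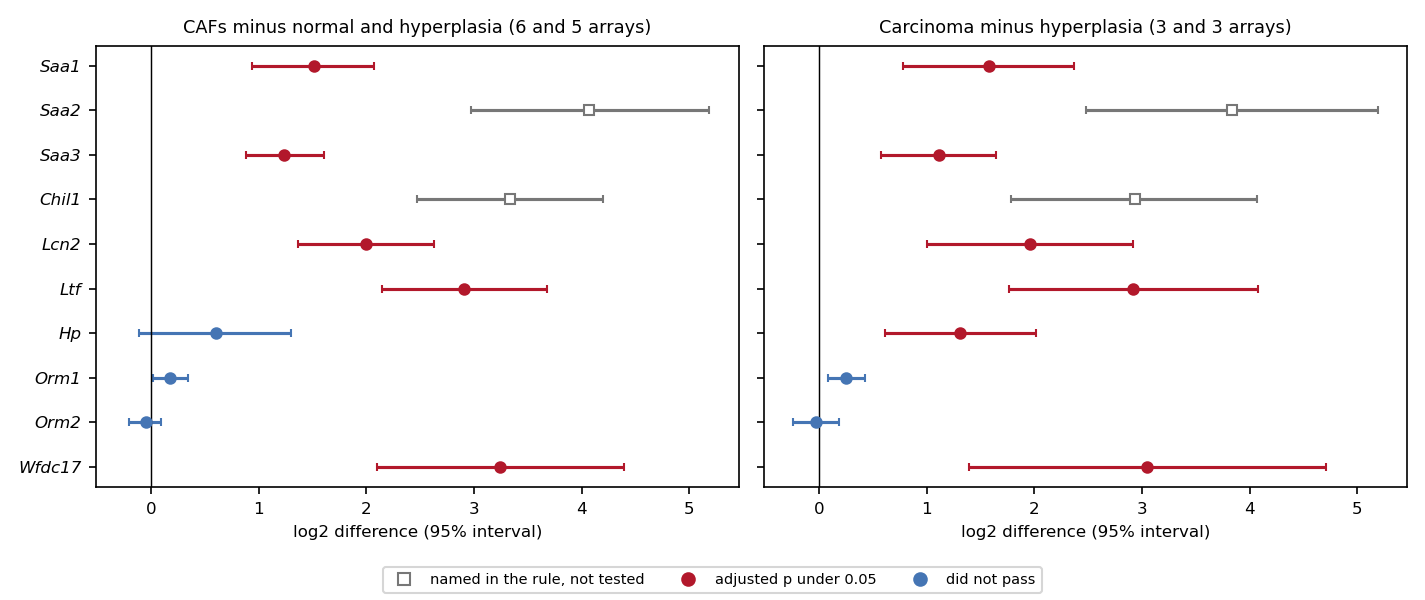
Log2 differences with 95% intervals (x axis) for the 10 genes (y axis), for CAFs minus normal and hyperplasia (left) and carcinoma minus hyperplasia (right); open squares mark Saa2 and Chil1, which chose the set and were not tested. Ltf (2.91) and Wfdc17 (3.24) have the largest differences among the tested genes in the left panel, and Orm2 (-0.05) lies near 0.

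Between carcinoma and hyperplasia, serum amyloid, iron-binding, haptoglobin and Wfdc17 transcripts were all higher in carcinoma. In this comparison, 6 of the 8 genes passed as higher, against 4.89% of all genes: Saa1 (1.58, adjusted p = 0.0285), Saa3 (1.11, adjusted p = 0.0254), Lcn2 (1.96, adjusted p = 0.0265), Ltf (2.92, adjusted p = 0.0131), Hp (1.31, adjusted p = 0.0334) and Wfdc17 (3.05, adjusted p = 0.0355). Orm1 was 0.25 higher (adjusted p = 0.0742) and Orm2 differed by -0.03 (adjusted p = 0.876). These calls changed with single arrays: 0 of the 8 passed without hyperplasia D6 or without D7, 2 without carcinoma D4, and 3 without carcinoma D3 or without advanced carcinoma D8, which enters only through the shared estimate of the spread. The difference of Ltf was 3.54 without hyperplasia D12 and that of Wfdc17 was 2.43 without carcinoma D4 (adjusted p = 0.0771). Fitted on the 6 arrays of these stages alone, 0 passed.

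Between hyperplasia and normal glands 0 of the 10 genes passed, as 0% of all genes did (limma, smallest adjusted p 0.789, with 841 genes at an unadjusted p under 0.05 and 0 called at the same adjusted threshold by contrasts of the methods' test). At the unadjusted p and fold threshold of the methods, 1 of the 10 passed on limma's p-values, Hp. The largest difference was that of Saa2, which had a mean of 4.58 in hyperplasia and 3.22 in normal glands (1.36, 95% interval -0.15 to 2.87). For Saa2 and Chil1 the differences here are a description, since their rise across these arrays chose the set. Chil1 was 0.99 higher in hyperplasia (95% interval -0.29 to 2.27), 1.80 without D2 and 0.17 without D5. Hp was 1.01 lower by the fitted means, 4.50 in hyperplasia and 5.52 in normal glands (unadjusted p = 0.017, adjusted p = 0.999). The other 7 genes differed by between -0.40 (Wfdc17) and 0.29 (Saa1).

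Advanced carcinoma and carcinoma likewise showed no called difference, in 0 of 10 genes and 0% of all genes (limma, smallest adjusted p 0.37, with 1124 genes at an unadjusted p under 0.05 and 0 called at the same adjusted threshold by contrasts of the methods' test). Chil1 had a mean of 10.55 in advanced carcinoma and 10.53 in carcinoma (difference 0.02, 95% interval -1.12 to 1.17). Saa2 had a mean of 7.80 in advanced carcinoma and 8.41 in carcinoma (difference -0.61, 95% interval -1.96 to 0.74). Orm1 lay below carcinoma in all advanced carcinoma arrays (difference -0.21, unadjusted p = 0.0241, adjusted p = 0.884). The differences of all 10 ran from -0.62 (Hp) to 0.71 (Wfdc17), and these intervals leave room for changes in either direction.

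Set against normal glands, advanced carcinoma had 4 of the 8 genes higher, against 3.90% of all genes: Saa3 (1.39, adjusted p = 0.0231), Lcn2 (2.06, adjusted p = 0.042), Ltf (2.88, adjusted p = 0.0269) and Wfdc17 (3.36, adjusted p = 0.0488). Saa1 was 1.49 higher (adjusted p = 0.0605) and Hp differed by -0.32 (adjusted p = 0.639). Of the 8 genes 0 passed without normal D2, without normal D5, without advanced carcinoma D8, without D9, or without both D2 and D11, and 2 passed without hyperplasia D7, without carcinoma D3 or without advanced carcinoma D11. The difference of Wfdc17 was 4.35 without D2, 2.38 without D5 and 4.0 without D11. With a term for D2 and D11, 1 passed (Saa3, adjusted p = 0.0497).

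In carcinoma against normal glands, the same 8 genes had differences from 0.02 (Orm2) to 2.75 (Ltf) and 0 passed, against 0.792% of all genes called higher (limma, adjusted p of Saa1 0.0642 and of Ltf 0.0626). At the same adjusted threshold the contrasts of the methods' test called 0 too. At the threshold the methods use, a fold over 1.5 at an unadjusted p under 0.05, 5 of the 8 passed on limma's p-values. Without hyperplasia D12 or without carcinoma D10, 3 passed. Only 2 arrays stand for normal glands, and the number of arrays limits the precision of both comparisons with them.

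Single arrays were high or low for several members at once in carcinoma and hyperplasia. Carcinoma D4 was the highest of the 3 carcinoma arrays for all 10 genes and the highest of the 6 CAF arrays for 8, all but Saa3 and Wfdc17. Hyperplasia D12 was the highest of its stage for 8 genes, all but Orm1 and Orm2. Normal D5 was the lowest of the 5 normal and hyperplasia arrays for 6 genes. In advanced carcinoma the members did not share an order. D11 was the highest for Saa1, Saa2, Chil1, Orm1 and Orm2 and the lowest for the other 5. Because D11 is tied to D2 and the remaining arrays, its rank is not an independent observation. The luminal epithelial list (13 measured genes) averaged between 8.22 and 9.42 in CAF arrays and between 5.85 and 7.51 in the others, and 12 of 13 passed as higher in CAFs, led by Ehf, Cldn3, Esrp1 and Spint1. It was highest in D4 (9.42), the array in which the fibroblast list was lowest (9.30, against 10.69 to 10.96 in the other 5 CAF arrays and 10.80 to 11.23 in normal glands and hyperplasia).

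The macrophage list (12 genes) averaged 6.65, 7.94 and 6.42 in carcinoma D3, D4 and D10, 8.18, 8.31 and 6.66 in advanced carcinoma D8, D9 and D11, and between 4.93 and 6.33 in normal glands and hyperplasia. Of these, 11 of 12 passed as higher in CAFs, led by Cd14, C1qb, Lyz2 and Csf1r. The arrays with the high macrophage means, D4, D8 and D9, are also the 3 highest of the 6 CAF arrays for Wfdc17, Saa3, Lcn2 and Ltf. The luminal list has the same 3 arrays highest, at 9.42, 9.16 and 9.15 against at most 8.63 in the other CAF arrays. Saa2 was likewise highest in D4 (9.14) but otherwise had a different order, 7.41 and 7.19 in D8 and D9 and 8.81 in D11. The place of D11 in these orders is limited by its tie to the other arrays. With D11 set aside, D3 (8.52) and D10 (7.58) also lay above D8 and D9 for Saa2. The part of luminal or macrophage RNA in the differences of the members was not tested.

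**Figure D3:**
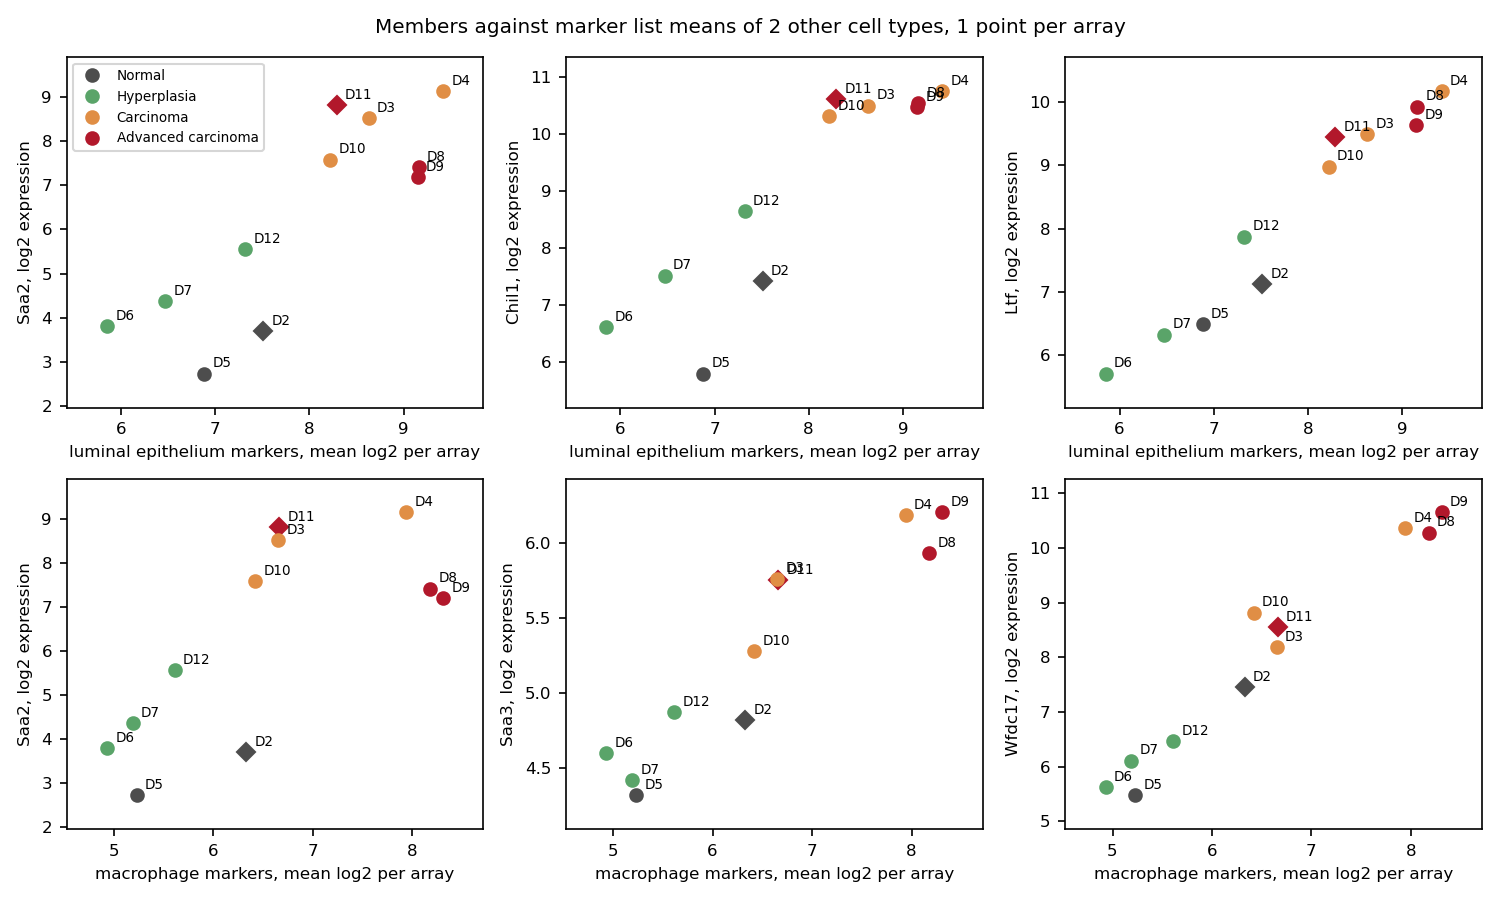
Log2 expression of a member (y axis) against the mean log2 level of the luminal epithelial markers (top row: Saa2, Chil1 and Ltf) or macrophage markers (bottom row: Saa2, Saa3 and Wfdc17) in the same array (x axis), 1 labelled point per array, with D2 and D11 as diamonds. In the bottom right panel D4, D8 and D9 have both the highest macrophage means (7.94 to 8.31) and the highest Wfdc17 (10.28 to 10.65).

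Neutrophils store lipocalin 2, lactoferrin and haptoglobin in their granules. The neutrophil list of 12 averaged between 4.29 and 4.61 in CAFs and between 4.21 and 4.46 in the others. Mmp9 was higher (0.46, adjusted p = 0.0191) and Ly6g lower (-0.24, adjusted p = 0.0432) in CAFs. The hepatocyte list averaged between 4.15 and 4.34 in CAFs and between 4.31 and 4.50 in the others, and 0 of its 4 measured genes passed. The means of both lists, and of Mmp9 and Ly6g, lie below 5.64, the median level over all genes. The adipocyte list was lower in CAFs for 6 of 9 genes (5.57 to 6.03 in CAFs and 6.13 to 6.81 in the others), with Pparg, Lpl, Fabp4 and Plin4 leading. Of 7 basal epithelial genes 3 passed as higher (Trp63, Krt5 and Krt14) and 1 as lower (Myh11). Of 13 fibroblast genes 0 passed, although their median difference was -0.59, against -0.04 over all genes.

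The genes whose levels followed Saa2 most closely over the 11 arrays were Wap, the whey acidic protein of milk (Pearson's r = 0.99), Gjb2, a gap junction connexin (0.988), Slc38a3, an amino acid transporter (0.976), C5ar2, a receptor for complement C5a (0.976), and Folr1, a folate receptor (0.97). Wap averaged 6.96 in CAFs and 4.16 in normal glands and hyperplasia. For Chil1 they were C5ar2 (0.985), the potassium channel gene Kcnn4 (0.984), Npnt, a matrix protein (0.98), Elapor1 (0.98) and Plet1 (0.98). Plet1 averaged 10.38 in CAFs and 8.12 in normal glands and hyperplasia. These correlations describe 11 arrays that fall into separate groups by stage. Genes were picked as the closest of all genes after members, predicted genes, Rik clones and gene segments were left aside. The member Lcn2 had r = 0.98 with Chil1. Among the members, Saa2 had r = 0.97 with Chil1, 0.96 with Saa1, 0.80 with Wfdc17, 0.39 with Hp and -0.03 with Orm2 over the same arrays.

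Acute phase genes outside the set were mostly without a call, as were most genes measured. Of 19 measured, 3 passed as higher in CAFs and 1 as lower, and the median difference was -0.09. Over all genes, 12% were called higher and 12.8% lower. The same shares stand beside the counts of the other lists. Lbp, the lipopolysaccharide-binding protein, averaged 10.31 in CAFs and 9.71 in normal glands and hyperplasia (0.61, adjusted p = 0.00159). Cp, the copper-carrying ceruloplasmin, was 0.66 higher (adjusted p = 0.00584) and A2m, a protease inhibitor, 1.30 higher (adjusted p = 0.0113). Fgg, the gamma chain of fibrinogen, fell by 1.29 in CAFs (adjusted p = 0.0389). Crp and Apcs, the classical pentraxins, had differences of -0.31 (adjusted p = 0.0555) and -0.09 (adjusted p = 0.195). Both were dim, averaging 4.31 and 3.79 in CAFs.

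Of 19 signals and factors of the acute phase response, 6 passed as higher in CAFs and 3 as lower (median difference 0.18). Osmr, the oncostatin M receptor, was 1.14 higher (adjusted p = 0.000713), the transcription factor Stat3 was 0.67 higher (adjusted p = 0.0014) and Cebpb, a C/EBP factor, was 0.78 higher (adjusted p = 0.00878). Il6ra, the interleukin-6 receptor, averaged 7.63 in CAFs and 8.63 in normal glands and hyperplasia and fell by 1.0 (adjusted p = 0.000229). Cebpd, another C/EBP factor, fell by 0.49 (adjusted p = 0.039), so the C/EBP genes did not move as one. The interleukin-1 genes Il1b and Il1a were 1.74 and 1.22 higher (adjusted p = 0.0278 and 0.0282). Il6 itself was 0.58 higher without passing (adjusted p = 0.154).

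Of 13 binding partners and receptors, 2 passed as higher and 1 as lower (median difference -0.06). Cd14, a co-receptor for lipopolysaccharide that is also in the macrophage list, was 2.44 higher (adjusted p = 0.00167), and Cd44, a hyaluronan receptor, was 1.06 higher (adjusted p = 0.00231). The scavenger receptor gene Cd36 fell by 1.03 (adjusted p = 0.0455). Slc22a17 and Lrp2, receptors for lipocalin 2, had differences of -0.04 (adjusted p = 0.785) and -0.10 (adjusted p = 0.174). Lrp2 was dim, averaging 4.11 in CAFs.

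Relatives of the members and other innate secreted proteins moved in both directions, 8 of 24 higher and 2 lower (median difference 0.22). Meltf, a membrane-bound relative of lactoferrin, was 1.54 higher (adjusted p = 0.000225) and Trf, serum transferrin, 1.94 higher (adjusted p = 0.00322). Wfdc18, a relative of Wfdc17, was 2.27 higher (adjusted p = 0.000226), whereas Wfdc1 of the same family fell by 1.63 (adjusted p = 0.000172). Lyz2, which is also in the macrophage list, was among the 8. The 4 lists overlap in function with the members and were drawn up with earlier results of these arrays known.

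**Figure D4:**
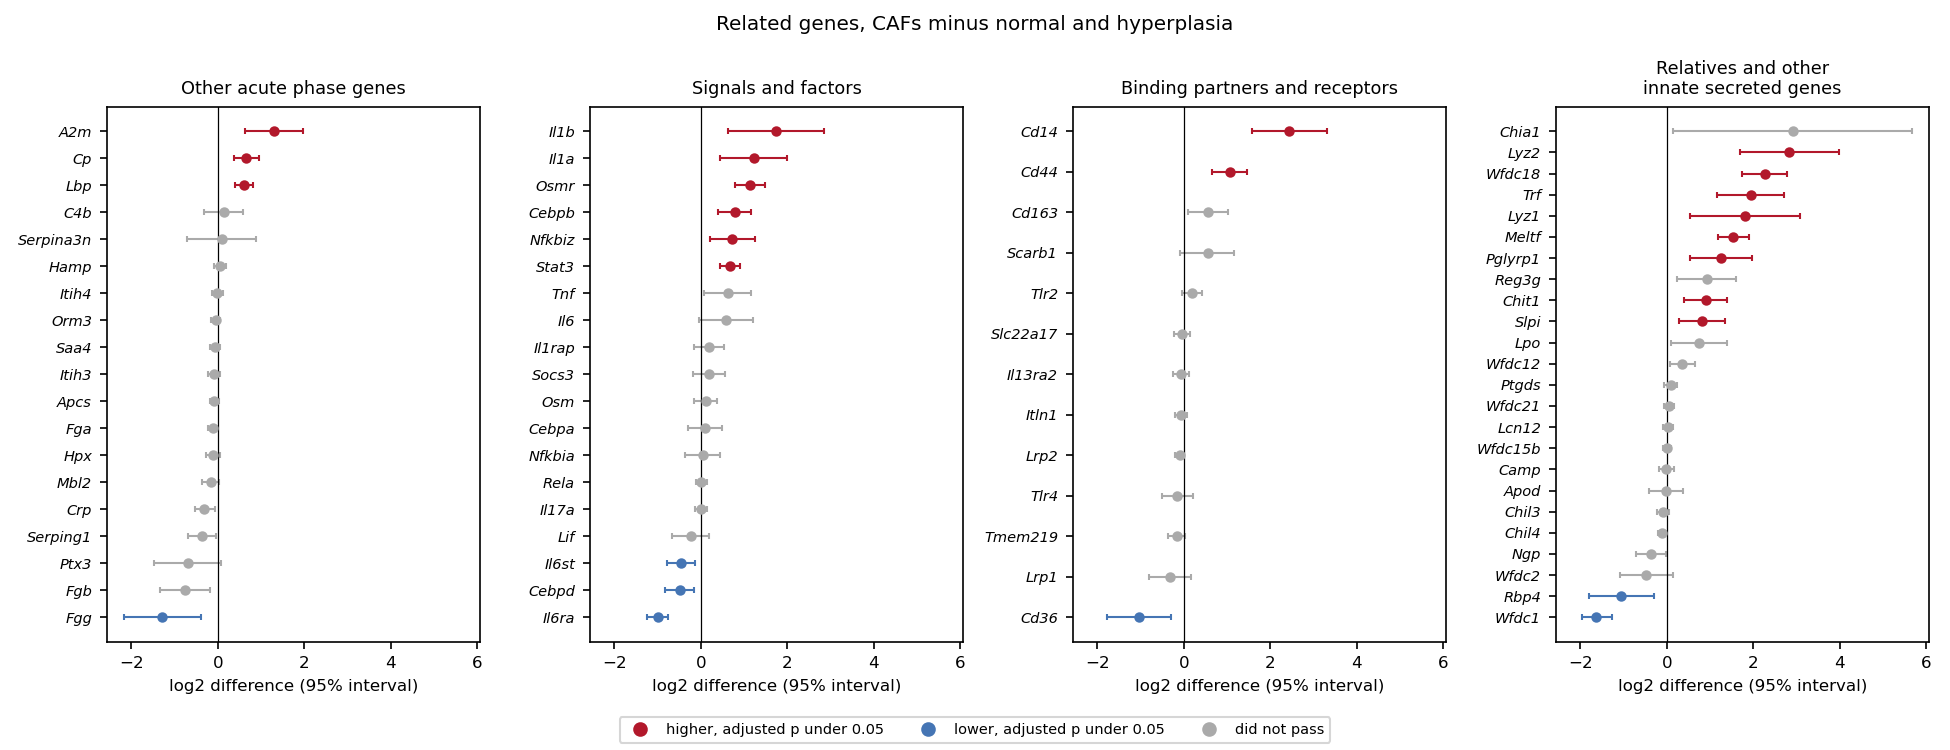
Log2 differences of CAFs minus normal and hyperplasia with 95% intervals (x axis) for every measured gene (y axis) of the 4 lists of related genes, with genes higher at an adjusted p under 0.05 in red, lower in blue and the rest in grey. Most acute phase genes outside the set lie near 0, while Wfdc18 (2.27) and Wfdc1 (-1.63) lie on opposite sides.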

How the data were processed

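The 11 arrays were summarised by the authors with robust multi-average (RMA, Partek 6.5), and the deposited values are log2 expression of 35399 probe sets. Groups came from the sample labels. A probe set was named where the platform annotation gives it 1 symbol (21789; 1621 have several), and the brightest per gene was kept (19938 genes). Array medians ran from 5.28 to 5.39, and arrays have no count depth, so their number limits the precision. The normal D2 and advanced carcinoma D11 values are tied to the other 9, by a step not given in the sources used here.

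Tests used limma (version 3.58.1, R 4.3.3): 1 model of 4 stages over all 11 arrays and, for CAFs, a model of 2 groups. P-values were adjusted by Benjamini-Hochberg over all 19938 genes, with a threshold of 0.05. The pipeline was tested on simulated data. Cohorts were separate pools of mice, and replicate numbers are not shared between stages.

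Alternatives were median centring, quantile normalization, removal of genes below 5.64, every probe set, one-way ANOVA contrasts (the methods' test), limma-trend, array weights, a term for D2 and D11, their removal, fits on the stages compared, the methods' threshold (unadjusted p under 0.05, fold over 1.5) and each array left out. Removal of D4, D8 and D9 was added after seeing the data. The members, lists, named genes and alternatives were chosen with earlier results of these data known. Genes named were all members, up to 4 passing genes per list with the smallest p, the 5 closest profiles of Saa2 and Chil1, and Pdgfra, Epcam and Adgre1. Saa4, Crp, Apcs, Il1a, Il1b, Il6, Cebpd, Slc22a17 and Lrp2 were named after their values were seen. Upstream sequences are from RefSeq, GRCm38.p6.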

Additional observations from a re-analysis of the deposited data

How the results depend on the processing

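For CAFs against normal glands and hyperplasia, 5 of the 8 genes passed in the main fit, 3 with dim genes removed, and 5 with each array left out. For advanced carcinoma against normal glands (4 in the main fit), 0 passed by one-way ANOVA contrasts, 1 with a term for D2 and D11, 0 without them, 0 without D4, D8 and D9, and 0 to 5 with each array left out. For carcinoma against normal glands (0 in the main fit), 3 passed after median centring, 4 with array weights, 5 at the methods' threshold and 0 to 3 with each array left out. For carcinoma against hyperplasia (6 in the main fit), 3 passed with dim genes removed, 1 by one-way ANOVA contrasts, 0 on the arrays of these stages alone, 0 without D4, D8 and D9, and 0 to 6 with each array left out. For hyperplasia against normal glands, 1 of 10 passed at the methods' threshold. Only some members were followed singly in hyperplasia against normal glands and in advanced carcinoma against carcinoma, and none in carcinoma against normal glands. Among the differences followed, those that turned direction had no call in the main fit. Orm2 turned in carcinoma against hyperplasia (-0.12 to 0.04 with each array left out). In advanced carcinoma against normal glands, Hp turned (0.11 without D2 and D11), as did Orm2 (0.01 without D4, D8 and D9). Saa2 turned in advanced carcinoma against carcinoma (0.76 without D4, D8 and D9). Members not followed may also have turned. Removal of dim genes leaves out Saa1, Saa3, Hp, Orm1 and Orm2 by its construction, and fewer arrays leave fewer degrees of freedom. For the other changes the cause was not tested. No paired analysis was possible because the labels give each array a number of its own.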
